A study of Mus musculus with 6 samples.

Results

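Plasma cells are the antibody-secreting end stage of B cells. Their program is set by transcription factors that shut down B-cell identity and enlarge the endoplasmic reticulum (ER), so that large amounts of immunoglobulin can be folded, assembled and exported. Early B cells of the bone marrow do not secrete antibody, yet several genes of this program are already transcribed in the B lineage before the plasma cell stage. The genes described here are 10 members of that program, chosen by name from the 21307 rows of the deposited table: the transcription factor genes Prdm1, Xbp1 and Bhlha15, the elongation factor gene Ell2, Igj and 2010001M09Rik (the J chain gene and Mzb1), the ER genes Derl3 and Creld2, and the surface protein genes Sdc1 and Slamf7. Each name matched 1 row, no row merged it with another gene, and no other row of the table overlapped its locus. All 10 passed the filter on low values, a mean of at least 1 FPKM (mapped fragments scaled to transcript length and library size) with both values above 0, as did 10856 rows in all.

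The cells were labelled B cells from the bone marrow of pre-tumoral mice, 6 to 8 weeks old, of C57BL/6 x 129S1/SvlmJ background. Both conditions carried the same alleles, Eµ-myc, Prmt5F/F and CreER, so Myc was driven by an immunoglobulin enhancer in the controls too. In the 4-OHT condition (3 libraries, titled PT), 50 nM 4-hydroxytamoxifen for 24 h activated Cre to delete Prmt5, the gene of an arginine methyltransferase, whereas the ethanol condition (3 libraries, titled WT) received the solvent. Both were washed, cultured for 5 days more, and grown with interleukin 7 at 5 ng/µl. The labels give neither the promoter that drives CreER nor whether the libraries came from separate mice, and the titles and the design text of the series describe the libraries as wild type and pre-tumoral instead.

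Each gene has a single deposited FPKM for each condition, so no difference below has a replicate error, a test or a known read depth. A difference is the log2 of (4-OHT + 1) over (ethanol + 1) in FPKM, called when it is at least 2-fold. Prmt5 was at 5.71 FPKM in 4-OHT and 41.6 FPKM in ethanol. Myc was at 213 FPKM in 4-OHT and 402 FPKM in ethanol. Over all compared genes the median log2 ratio stood at -0.07. The cultures were not B cells alone: the B-cell receptor subunit gene Cd79b was at 147 FPKM in 4-OHT and 256 FPKM in ethanol, and the macrophage receptor gene Csf1r was at 152 FPKM in 4-OHT and 90.5 FPKM in ethanol. In such mixtures fewer cells of a type and less RNA per cell cannot be told apart.

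The program did not shift as a unit. Of the 10 members, 8 were lower in 4-OHT and 2 were higher, where 55.1% of all compared genes were lower. Bhlha15, 2010001M09Rik and Igj were at least 2-fold lower, which is 3 of 10 members against a background of 2.58% of all compared genes (280 of 10856). No member was at least 2-fold higher, against a background of 10.4%. The median log2 ratio of the members was -0.60. Slamf7, Ell2 and Derl3 were lower by less than 2-fold, Xbp1, Creld2 and Prdm1 lay within 0.1 of 0 on the log2 scale, and Sdc1 was nearly 2-fold higher. Nearest to a 2-fold line were Derl3 at -0.96 and Sdc1 at 0.94, both short of it. Of the called members Igj was nearest, at -1.71.

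**Figure D1:**
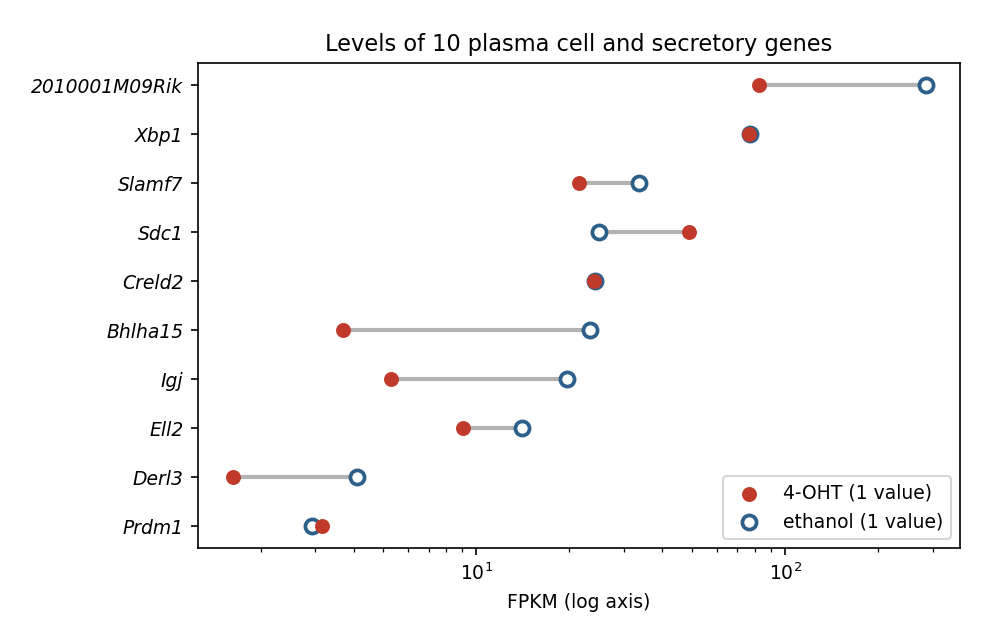
FPKM (log axis) of the 10 members in 4-OHT (filled points) and ethanol (open points), 1 deposited value per condition with no replicate error, ordered by the ethanol level. The widest gaps are those of Bhlha15, at 3.71 FPKM in 4-OHT and 23.3 FPKM in ethanol, 2010001M09Rik and Igj, and the points of Xbp1 and Creld2 lie on each other.

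The 3 transcription factor genes stood far apart in level and in difference. Prdm1 (chromosome 10, 44156981 to 44178493 on mm9) encodes BLIMP-1, the repressor that ends the B-cell program and drives plasma cell formation. It was at 3.15 FPKM in 4-OHT and 2.93 FPKM in ethanol, a log2 ratio of 0.08, and its level exceeded 15.0% of the compared genes in 4-OHT and 17.0% in ethanol. Prdm1 was thus low and near equal in both conditions. Under quantile normalization its log2 ratio was -0.12, so its direction is not set by these data.

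Xbp1 (chromosome 11, 5420970 to 5425875) encodes the leucine zipper factor that expands the ER and the secretory pathway. Its messenger RNA becomes fully active only after the ER stress sensor IRE1 cuts out a short intron, a step that a value per gene does not show. Xbp1 was at 76.4 FPKM in 4-OHT and 77.1 FPKM in ethanol, a log2 ratio of -0.01. It was the second most abundant member in each condition, above 92.8% of the compared genes in 4-OHT and 92.6% in ethanol.

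Bhlha15 (chromosome 5, 144951155 to 144955310) encodes MIST1, a basic helix-loop-helix factor that scales up the secretory machinery of plasma cells and of exocrine gland cells and is a known target of XBP1. It was at 3.71 FPKM in 4-OHT and 23.3 FPKM in ethanol, 5.15-fold lower (log2 ratio -2.37). This was the lowest ratio of the 10 members and the 5th lowest of the 10856 compared genes. Its level exceeded 18.3% of the compared genes in 4-OHT and 71.3% in ethanol. The ratio of Xbp1 to Bhlha15 in FPKM was accordingly 20.6 in 4-OHT and 3.32 in ethanol.

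The genes around these factors were taken from lists of known regulators. Of 17 compared genes among 20 other plasma cell regulators and surface genes, 5 were lower and 12 higher in 4-OHT. Of all compared genes, 55.1% were lower. In this list 1 was at least 2-fold lower and 1 at least 2-fold higher (2.58% and 10.4% of all compared genes). The median log2 ratio of the list was 0.36. The 2-fold lower gene was Pou2af1, which encodes the B-cell coactivator OBF-1, at 100.1 FPKM in 4-OHT and 208 FPKM in ethanol. Irf4, the factor gene that acts with Prdm1 in plasma cells and also in pre-B cells, was at 25.9 FPKM in 4-OHT and 44.3 FPKM in ethanol. The 2-fold higher gene was Ly6c2, a surface gene that monocytes and granulocytes also express, at 360 FPKM in 4-OHT and 73.7 FPKM in ethanol. Tnfrsf17, the gene of the survival receptor BCMA of mature plasma cells, was at 0.0515 FPKM in 4-OHT and 0.113 FPKM in ethanol and did not enter the comparison. Tnfrsf17 was thus near 0 in both conditions, and other genes of the list were low too. Cd27, at 1.41 FPKM in 4-OHT and 0.536 FPKM in ethanol, was also below the filter. So was Zbtb20, at 0.291 FPKM in 4-OHT and 0.247 FPKM in ethanol. Tnfrsf13b was at 3.64 FPKM in 4-OHT and 6.36 FPKM in ethanol. Some surface genes of plasma cells had higher levels. Cd38, on the same list, was at 39.5 FPKM in 4-OHT and 59.3 FPKM in ethanol. The member Sdc1 was at 48.8 FPKM in 4-OHT and 24.9 FPKM in ethanol. Mzb1 and Xbp1, which are not surface genes, were among the more abundant genes.

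Of 10 compared genes that hold the plasma cell program back, 7 were lower in 4-OHT, where 55.1% of all compared genes were. Of these 10, 2 were at least 2-fold lower and 1 at least 2-fold higher (2.58% and 10.4% of all compared genes). Their median log2 ratio was -0.35. The most abundant were Ets1, at 46.1 FPKM in 4-OHT and 78.0 FPKM in ethanol, and Id3, at 49.4 FPKM in 4-OHT and 50.1 FPKM in ethanol. Pax5, the B-cell identity factor gene that BLIMP-1 represses, had a log2 ratio of -0.89, and Bach2, a repressor gene of Prdm1, one of -0.03. The ends of the list were Bcl11a, at 6.17 FPKM in 4-OHT and 14.6 FPKM in ethanol, and Bcl6, the repressor gene of germinal centre B cells that monocytes and macrophages also use, at 10.2 FPKM in 4-OHT and 4.03 FPKM in ethanol. Repressors and activators thus included genes on either side of 0.

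Ell2 (chromosome 13, 75844932 to 75909806) encodes an elongation factor of RNA polymerase II that favours the secreted form of immunoglobulin heavy chain messenger RNA in plasma cells. It was at 9.05 FPKM in 4-OHT and 14.0 FPKM in ethanol, 1.49-fold lower (log2 ratio -0.58). This was not a called difference, and 13.1% of the compared genes had a lower ratio. Its paralog Ell was at 14.6 FPKM in 4-OHT and 10.6 FPKM in ethanol, so Ell was the more abundant in 4-OHT and Ell2 in ethanol. A list of the super elongation complex, in which ELL2 acts, also counts the regulator gene Hexim1 (log2 ratio -0.29), which is not a subunit. Of its 10 compared genes, 8 were lower in 4-OHT, 1 by 2-fold or more (55.1% and 2.58% of all compared genes). The median of these 10 was -0.36. They ran from Aff3, a scaffold gene that is strongly expressed in lymphoid cells, at 8.59 FPKM in 4-OHT and 21.7 FPKM in ethanol, to the related Aff4, at 10.8 FPKM in 4-OHT and 7.48 FPKM in ethanol.

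The product gene and its chaperone gene were both at least 2-fold lower. Igj (chromosome 5, 88948834 to 88956922) encodes the J chain, which joins immunoglobulin M pentamers and immunoglobulin A dimers. It was at 5.28 FPKM in 4-OHT and 19.6 FPKM in ethanol, 3.28-fold lower (log2 ratio -1.71, the 30th lowest of 10856). 2010001M09Rik, or Mzb1 (chromosome 18), encodes a protein of the ER lumen that works with the chaperone GRP94 in the assembly and secretion of immunoglobulin M and is best known from marginal zone and B1 B cells. It was at 82.4 FPKM in 4-OHT and 285 FPKM in ethanol, 3.43-fold lower (log2 ratio -1.78, the 24th lowest). Mzb1 remained the most abundant member in each condition and stood above 93.5% of the compared genes in 4-OHT and 98.9% in ethanol.

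Igj and Mzb1 kept nearly the same proportion, with 15.6 times as much Mzb1 as Igj in 4-OHT and 14.5 times in ethanol. Mzb1 made up 29.8% of the FPKM summed over the 10 members in 4-OHT and 56.0% in ethanol. That sum was 276 FPKM in 4-OHT and 509 FPKM in ethanol, and without Mzb1 it was 194 FPKM in 4-OHT and 224 FPKM in ethanol. Hsp90b1, which encodes GRP94, was at 290.3 FPKM in 4-OHT and 294 FPKM in ethanol (log2 ratio -0.02). In these mixed cultures the partner chaperone gene was thus near equal where Mzb1 was lower. The level of Hsp90b1 in the cells that express Mzb1 was not measured.

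Genes of the chains that early B cells assemble were lower as well. A list of them held surrogate light chain genes, Vpreb3 and the CD79 signalling subunit genes. All 6 compared genes of this list were lower in 4-OHT, 5 by 2-fold or more. Of all compared genes, 55.1% were lower and 2.58% at least 2-fold lower. The median log2 ratio of the 6 was -1.67. Vpreb2, a surrogate light chain gene with the near-identical copy Vpreb1, was lowest, at 42.0 FPKM in 4-OHT and 272 FPKM in ethanol. Vpreb3 was the most abundant, at 242 FPKM in 4-OHT and 509 FPKM in ethanol. The signalling subunit gene Cd79b had the smallest difference, a log2 ratio of -0.80. The genes of the conventional immunoglobulin constant regions on this list matched no row under the names searched, so they were not analysed here.

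**Figure D2:**
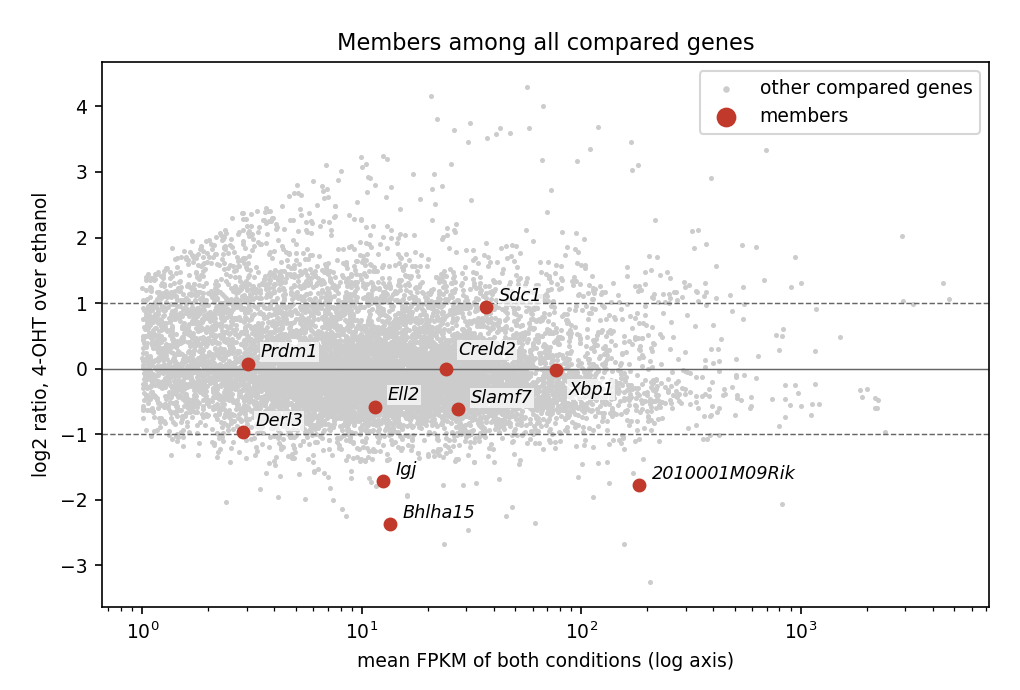
Log2 ratio of 4-OHT over ethanol (pseudocount of 1 FPKM) against the mean FPKM of both conditions (log axis) for the 10 members (large points) and the other compared genes (small points), 10856 genes in all, with dashed lines at 2-fold. Bhlha15, 2010001M09Rik and Igj lie below the lower dashed line, Derl3 on its inner side, and no member lies above the upper one.

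Derl3 and Creld2 act inside the ER, and the promoters of both hold an exact ER stress element, the sequence at which ATF6, with NF-Y, switches on ER genes. Sequences were taken from RefSeq on GRCm38.p6 and matched by symbol for 9 members. No sequence was matched for 2010001M09Rik (Mzb1), so its promoter was not searched. The 7 motifs were searched on both strands from 250 bases before to 50 bases after the start. The ER stress element, CCAAT and CCACG with 9 bases of any kind between them, was in 39 of 32851 promoter windows (0.119%), among them those of 2 members. The E-box CACGTG, which MYC and other factors bind, was in 7.15% of windows and in the Derl3 promoter alone among the 9 members searched. The E-box CAGCTG was in 16.3% of windows and in those of Slamf7 and Ell2. The E-box CATATG (3.91%) and the unfolded protein response core TGACGTGG (0.676%) were in none of the 9 windows searched. Neither was the ER stress element II, ATTGG and CCACG with 1 base of any kind between them (0.0365%). The PRDM1 motif, GAAAGT followed at once by GAAA (0.253%), was absent from these 9 windows too. A match is a description of the letters and shows no binding. The 250 bases before the start of both genes are shown because they carry the element, with every base that a motif fixes in capitals. In Derl3 (chr10:75893148-75893397, plus strand) the E-box comes first, 168 bases before the start, and the element follows from 156 bases before it, without overlap. In Creld2 (chr15:88819396-88819645, plus strand) the element begins 126 bases before the start. In both the element lies on the strand opposite to the gene, so its fixed letters read CGTGG and ATTGG.
Derl3: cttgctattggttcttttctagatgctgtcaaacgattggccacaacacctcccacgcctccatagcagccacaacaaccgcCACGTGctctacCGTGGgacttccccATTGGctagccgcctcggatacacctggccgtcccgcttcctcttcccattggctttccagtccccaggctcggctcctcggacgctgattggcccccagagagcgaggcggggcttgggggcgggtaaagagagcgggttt
Creld2: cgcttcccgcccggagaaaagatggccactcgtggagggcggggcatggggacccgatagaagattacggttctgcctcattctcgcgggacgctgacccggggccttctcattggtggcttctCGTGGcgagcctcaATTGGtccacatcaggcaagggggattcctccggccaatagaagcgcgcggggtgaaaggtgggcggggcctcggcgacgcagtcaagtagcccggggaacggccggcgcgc

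The levels of these genes went apart although they share the element. Derl3 (chromosome 10, 75356143 to 75358686 on mm9) encodes a derlin, a membrane protein that helps to move misfolded proteins out of the ER for degradation. It was at 1.62 FPKM in 4-OHT and 4.12 FPKM in ethanol, 1.95-fold lower (log2 ratio -0.96), and had the lowest level of all members in 4-OHT. A level this low makes the ratio depend on the pseudocount: the log2 ratio was -1.29 with a pseudocount of 0.1 FPKM and -1.12 with 0.5, and the authors' deposited table lists -1.34. Its paralogs were not lower, with Derl1 at 43.7 FPKM in 4-OHT and 34.2 FPKM in ethanol and Derl2 at 9.93 FPKM in 4-OHT and 9.31 FPKM in ethanol. Derl3 was the least abundant derlin gene in each condition.

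Creld2 (chromosome 15, 88650076 to 88657111 on mm9) encodes an ER protein induced by ER stress that takes part in disulfide exchange. It was at 24.1 FPKM in 4-OHT and 24.2 FPKM in ethanol, a log2 ratio of -0.01. There was 14.8 times as much Creld2 as Derl3 in 4-OHT and 5.88 times as much in ethanol. The paralog Creld1 was at 7.88 FPKM in 4-OHT and 3.92 FPKM in ethanol (log2 ratio 0.85).

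The same element gives a sequence-defined group to set beside both members. Of the 37 gene symbols whose window holds it, 14 were compared. Of these, 7 were lower and 7 higher in 4-OHT, where 55.1% of all compared genes were lower. With the pseudocount of 1 FPKM none of the 14 differed by 2-fold, against 12.9% of all compared genes, and their median log2 ratio was 0.09. That count turns on Derl3, which was past 2-fold lower with pseudocounts of 0.1 (-1.29) and 0.5 FPKM (-1.12). It was also past 2-fold lower in the authors' deposited values (-1.34). Derl3 had the lowest ratio of the 14. The next lowest was Hnrnpa3, a splicing regulator gene whose row also names the predicted gene Gm6793, at -0.71. Calr, which encodes the chaperone calreticulin, was highest, at 403 FPKM in 4-OHT and 257 FPKM in ethanol. Hspa5, which encodes the chaperone BiP, was at 242 FPKM in 4-OHT and 186 FPKM in ethanol. Syvn1, the gene of the ubiquitin ligase HRD1 of ER-associated degradation, was at 48.2 FPKM in 4-OHT and 59.8 FPKM in ethanol. The elements of both members and of the ER genes are shown as read with CCAAT first, fixed bases in capitals, to let the spacer between them be compared. Creld2 shares its element with the neighbouring Alg12, a gene of glycan assembly that is read in the other direction (5.15 FPKM in 4-OHT and 4.44 FPKM in ethanol), and Hsp90b1 holds 2 elements.
Derl3: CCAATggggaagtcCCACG
Creld2: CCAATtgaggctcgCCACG
Hspa5: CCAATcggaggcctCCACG
Calr: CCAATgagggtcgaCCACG
Hsp90b1, distal: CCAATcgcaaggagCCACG
Hsp90b1, proximal: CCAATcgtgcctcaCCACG
Pdia6: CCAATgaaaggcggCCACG
Dnajc3: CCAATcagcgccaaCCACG
Canx: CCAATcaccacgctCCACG
Ero1b: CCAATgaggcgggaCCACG
Syvn1: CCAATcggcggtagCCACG

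Most genes of the wider secretory pathway differed by less than 2-fold, as did most of all compared genes. Of 109 compared genes on 5 lists, 41 were lower and 68 higher in 4-OHT, with a median log2 ratio of 0.11. None was at least 2-fold lower and 2 were at least 2-fold higher. Of all compared genes, 55.1% were lower, 2.58% at least 2-fold lower and 10.4% at least 2-fold higher. Of 24 ER chaperone and folding enzyme genes, 16 were higher (median 0.17), from Ero1l, an oxidase gene that also responds to hypoxia, at -0.48 to Creld1. Of 18 genes of ER-associated degradation, 12 were higher (median 0.10), and the mannosidase-like gene Edem3 had the lowest log2 ratio, -0.44. Its most abundant members were Vcp, the gene of the extracting ATPase, at 132 FPKM in 4-OHT and 126 FPKM in ethanol, and Herpud1, at 90.2 FPKM in 4-OHT and 112 FPKM in ethanol.

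Among 23 genes of translocation into the ER and signal peptide removal, 13 were lower (median -0.04). Spcs2, a signal peptidase subunit gene, was lowest, at 42.5 FPKM in 4-OHT and 81.1 FPKM in ethanol, whereas the translocon gene Sec61b was at 189 FPKM in 4-OHT and 237 FPKM in ethanol and the peptidase gene Sec11c at 146 FPKM in 4-OHT and 148 FPKM in ethanol. Of 17 genes of N-glycosylation, 11 were higher (median 0.09), among them the oligosaccharyltransferase gene Rpn2, at 86.3 FPKM in 4-OHT and 58.6 FPKM in ethanol. Of 27 genes of transport between ER and Golgi, 19 were higher (median 0.12), including both genes past 2-fold. These were Kdelr3, a receptor gene that returns ER proteins, at 4.25 FPKM in 4-OHT and 0.452 FPKM in ethanol, and Sec24d, a coat protein gene for the export of large cargo such as procollagen, at 8.72 FPKM in 4-OHT and 2.95 FPKM in ethanol. Col1a1, a collagen gene of stromal cells, was at 127 FPKM in 4-OHT and 6.91 FPKM in ethanol in the same comparison, and the part of stromal cells in these values was not tested.

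The sensors of ER stress were expressed in both conditions. Of 13 genes of the unfolded protein response, 7 were lower and 6 higher, where 55.1% of all compared genes were lower. In this list 1 was at least 2-fold lower (2.58% of all compared genes), and the median log2 ratio was -0.11. Ern1, which encodes IRE1, the enzyme that splices Xbp1, was highest, at 8.83 FPKM in 4-OHT and 5.08 FPKM in ethanol. Atf6 was at 10.6 FPKM in 4-OHT and 10.4 FPKM in ethanol, and Eif2ak3, which encodes the sensor PERK, at 13.6 FPKM in 4-OHT and 12.7 FPKM in ethanol. The gene past 2-fold was Chac1, a glutathione-degrading enzyme gene downstream of ATF4, at 5.28 FPKM in 4-OHT and 15.4 FPKM in ethanol. Atf4 was the most abundant, at 153 FPKM in 4-OHT and 183 FPKM in ethanol.

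**Figure D3:**
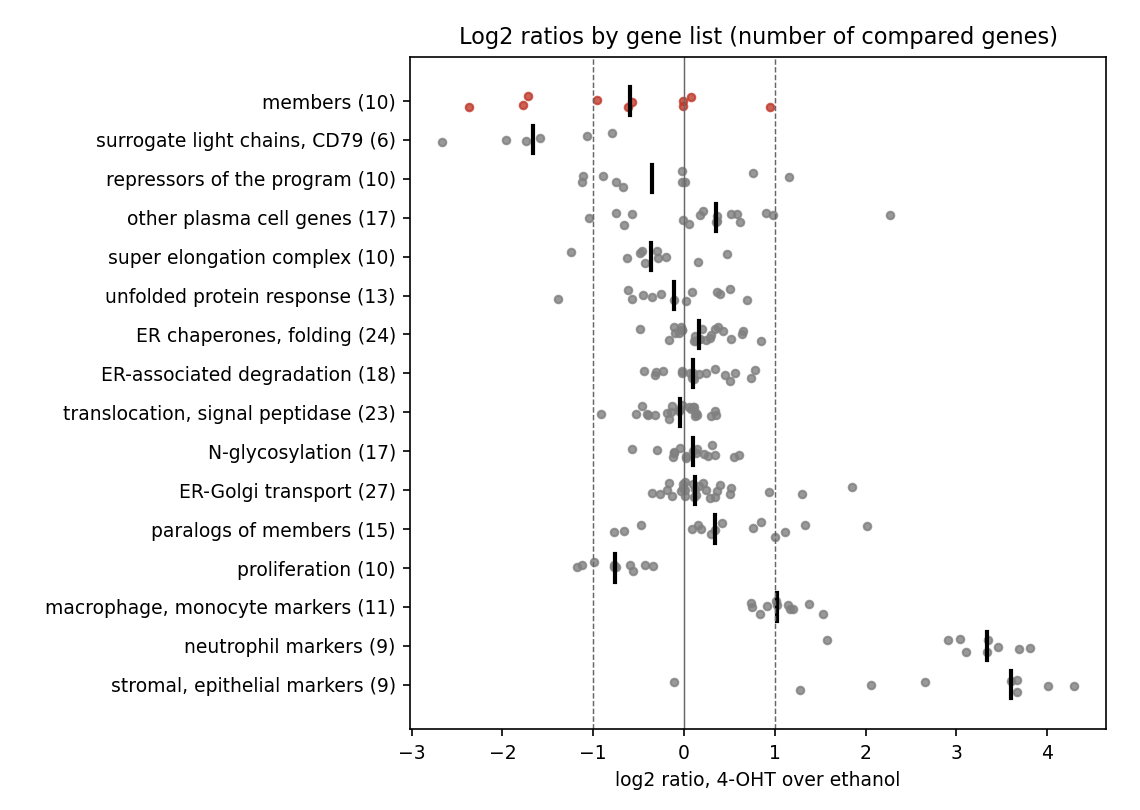
Log2 ratios of 4-OHT over ethanol for each compared gene of the members and 15 further lists, with the median as a black bar, the number of compared genes in brackets and dashed lines at 2-fold (vertical scatter within a list has no meaning). The members spread from -2.37 to 0.94, the lists of the ER and of vesicle transport have medians from -0.04 to 0.17, and the neutrophil and stromal lists lie at the right.

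The surface genes went in opposite directions. Sdc1 (chromosome 12, 8778202 to 8800493) encodes syndecan-1, or CD138, a heparan sulfate proteoglycan that marks plasma cells, is also present on mouse pre-B cells, and is abundant on epithelia. It was at 48.8 FPKM in 4-OHT and 24.9 FPKM in ethanol, 1.92-fold higher (log2 ratio 0.94), the highest ratio of the members. With median-of-ratios scaling its log2 ratio was 1.02, past 2-fold. All syndecan genes were higher in 4-OHT: Sdc3 was at 83.0 FPKM in 4-OHT and 40.8 FPKM in ethanol, Sdc4 at 22.9 FPKM in 4-OHT and 20.0 FPKM in ethanol, and Sdc2 at 4.34 FPKM in 4-OHT and 0.324 FPKM in ethanol. The increase in level was largest for Sdc3 and Sdc1, and Sdc3 was the most abundant syndecan gene in each condition.

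Slamf7 (chromosome 1, 173562534 to 173583168) encodes a self-binding receptor of plasma cells, natural killer cells and macrophages. It was at 21.5 FPKM in 4-OHT and 33.6 FPKM in ethanol, 1.54-fold lower (log2 ratio -0.62), a difference that was not called. The ratio of Sdc1 to Slamf7 was 2.27 in 4-OHT and 0.742 in ethanol, so their order by level differed between the conditions. Other receptors of the SLAM family lay on both sides. Slamf9 was at 6.78 FPKM in 4-OHT and 12.3 FPKM in ethanol. Also lower were Slamf6, at 8.82 FPKM in 4-OHT and 14.6 FPKM in ethanol, and Cd244, at 3.09 FPKM in 4-OHT and 4.68 FPKM in ethanol. Cd48 was at 77.3 FPKM in 4-OHT and 62.6 FPKM in ethanol, and Cd84 at 81.1 FPKM in 4-OHT and 47.5 FPKM in ethanol. Ly9 was at 42.0 FPKM in 4-OHT and 37.7 FPKM in ethanol. Slamf1, at 3.88 FPKM in 4-OHT and 0.935 FPKM in ethanol, and Slamf8, at 7.80 FPKM in 4-OHT and 3.07 FPKM in ethanol, were at least 2-fold higher. Over all 15 compared paralogs of the members, 3 were lower and 12 higher, with 4 at least 2-fold higher and a median of 0.34. Of all compared genes, 55.1% were lower and 10.4% at least 2-fold higher.

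Markers of other cells moved in the same comparison, and some of these cells also express members. Of all compared genes, 55.1% were lower in 4-OHT by any amount and 10.4% were at least 2-fold higher. All 11 compared macrophage and monocyte markers were higher in 4-OHT, 7 by 2-fold or more, and summed to 1597 FPKM in 4-OHT and 736 FPKM in ethanol. Lyz2, a defining gene of that list, is listed at 0 FPKM in 4-OHT and at 3835 FPKM in ethanol and was left out of the comparison. The authors' deposited log2 fold change for Lyz2 is 0, although its FPKM values differ. A listed 0 can be a failed estimate, as Eef1a1, an elongation factor gene that every cell uses, is at 0 in both conditions. Ly6c1, below the filter, was at 1.33 FPKM in 4-OHT and 0.299 FPKM in ethanol. With Lyz2 as listed, the sum over all 13 genes of the list was 1598 FPKM in 4-OHT and 4571 FPKM in ethanol, so the direction of the sum turns on that value. All 9 neutrophil markers were at least 2-fold higher (sums of 3513 FPKM in 4-OHT and 403 FPKM in ethanol), as were 8 of 9 stromal and epithelial markers (530.3 FPKM in 4-OHT and 34.0 FPKM in ethanol). Of the epithelial genes on that list, Cdh1 was at 3.55 FPKM in 4-OHT and 0.882 FPKM in ethanol, at least 2-fold higher, and Epcam was at 0.949 FPKM in 4-OHT and 1.10 FPKM in ethanol. The keratin genes, below the filter, were at 1.21 (Krt8) and 1.19 FPKM (Krt18) in 4-OHT and at 0.0126 (Krt8) and 0.108 FPKM (Krt18) in ethanol. Of 11 natural killer cell markers, 4 were compared. All 4 were higher, with sums of 38.5 FPKM in 4-OHT and 14.7 FPKM in ethanol. Most of both sums came from Ccl5 (21.4 FPKM in 4-OHT and 10.8 FPKM in ethanol) and Nkg7 (13.6 FPKM in 4-OHT and 1.62 FPKM in ethanol). Below the filter, the defining receptor gene Ncr1 was at 0.710 FPKM in 4-OHT and 0.281 FPKM in ethanol. Prf1, the only lower gene of the list, was at 0.319 FPKM in 4-OHT and 0.510 FPKM in ethanol. Of 10 compared markers of plasmacytoid dendritic cells, which express Mzb1 and Igj too, 5 were lower and 5 higher, with a median log2 ratio of 0.37. Their sums were 285 FPKM in 4-OHT and 385 FPKM in ethanol, but 162 FPKM in 4-OHT and 150.02 FPKM in ethanol without Cox6a2, which decides the direction of the sum. The defining receptor gene Siglech was near 0, at 0.0997 FPKM in 4-OHT and 0.110 FPKM in ethanol. The part of macrophages, neutrophils and stromal cells in the member values was not tested.

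The choice of pseudocount and scaling mattered for members near a threshold or near 0. Bhlha15 ran from -2.65 to -2.30, 2010001M09Rik from -1.82 to -1.70 and Igj from -1.89 to -1.65 over the ways of computing a ratio, all at least 2-fold lower. Derl3 ran from -1.34 to -0.91 and Sdc1 from 0.94 to 1.02, on both sides of 2-fold. Xbp1 ran from -0.01 to 0.06 and Creld2 from -0.01 to 0.07, so their direction is not set.

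**Figure D4:**
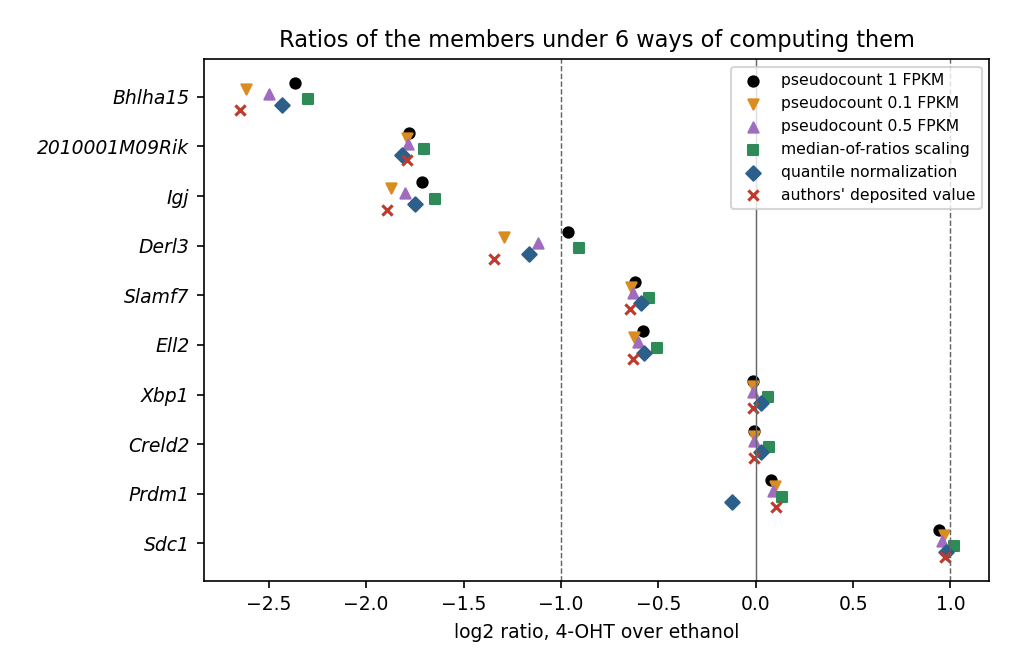
Log2 ratio of 4-OHT over ethanol of each member computed in 6 ways (symbols: 3 pseudocounts, median-of-ratios scaling, quantile normalization and the authors' deposited value), with dashed lines at 2-fold. Bhlha15, 2010001M09Rik and Igj stay left of the lower line in all 6, whereas Derl3 and Sdc1 have symbols on both sides of a line.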

How the data were processed

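The authors deposited 1 FPKM value for each gene in each condition. The sources used here do not say how the 3 libraries of a condition were combined or scaled. Genome build mm9, the aligner TopHat2 2.0.9, Cufflinks 2.1.1 and CASAVA are named in the submitters' processing notes. The deposited log2 fold changes equal the log2 of the 4-OHT over the ethanol FPKM in all 15756 rows above 0 in both, within 0.01. With 1 value per condition the planned linear model was not run, and no p-value, SD or interval is given. The members and gene lists were chosen with earlier results of these data known. Named genes are the members, Prmt5, Myc and, per list, the 2 most abundant and the highest and lowest ratios; others, such as Irf4, Tnfrsf17, Pax5, Hspa5, the other paralogs and the genes with an ER stress element, were chosen after their values were seen. A gene that the rule names is not reported here. Lists are described by counts with no test. Locus starts are counted from 1: lengths equalled RefSeq gene lengths in 6341 rows with the file's starts read as counted from 0, against 437 with them read as counted from 1, so 1 was added. The reference build is GRCm38, so it gave names and promoters only. The computation of ratios was tested on simulated data. The tools were pandas 2.3.3 and numpy 2.4.6 under Python 3.11.15, with figures drawn in matplotlib 3.10.9. Alternatives covered pseudocounts, filters, scalings and the authors' values.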

Additional observations from a re-analysis of the deposited data

How the results depend on the processing

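The count of members at least 2-fold lower was 3, or 4 with Derl3 under pseudocounts of 0.1 and 0.5, quantile normalization and the authors' deposited fold changes. The share of all compared genes was 2.58%, and 4.21%, 3.28%, 3.39% and 4.44% under these alternatives in turn. The count at least 2-fold higher was 0, and 1 (Sdc1) with median-of-ratios scaling, where 11.6% of all compared genes were. In the 5 secretory lists 2 genes were at least 2-fold higher, 1 with a minimum mean of 5 FPKM and 3 with median-of-ratios scaling or the authors' deposited fold changes. None was 2-fold lower under any alternative run. The share of all compared genes at least 2-fold higher was 10.4%, and 8.61%, 11.6% and 14.1% under these alternatives in turn. A minimum of 5 FPKM left 8 members, without Derl3 and Prdm1. The median log2 ratio of the members ran between -0.64 and -0.53 over these alternatives. No paired analysis was possible because single libraries have no values in the deposited table, and for that reason leaving out each library was not run either. Without counts, precision cannot be stated, and the low values of Derl3, Prdm1 and Bhlha15 in 4-OHT carry the least of it.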

Other observations

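Genes of proliferation were lower in 4-OHT in all 10 compared members of that list, 2 by 2-fold or more (55.1% and 2.58% of all compared genes). The median log2 ratio of these 10 was -0.76. They ran from Top2a, a topoisomerase gene of dividing cells, at 57.2 FPKM in 4-OHT and 131 FPKM in ethanol, to the replication helicase gene Mcm5, at 47.4 FPKM in 4-OHT and 60.3 FPKM in ethanol. Pcna, the replication clamp gene, was the most abundant, at 232 FPKM in 4-OHT and 313 FPKM in ethanol.

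The ER stress element II (ATTGG and CCACG with 1 base between), which no searched member's promoter holds, was found for 9 compared genes. Of these, 5 were lower and 4 higher in 4-OHT, where 55.1% of all compared genes were lower. Nucb1, which encodes a calcium-binding Golgi protein, was highest, at 76.2 FPKM in 4-OHT and 39.5 FPKM in ethanol, close to the ratio of Sdc1. Herpud1, an ER degradation gene, was at 90.2 FPKM in 4-OHT and 112 FPKM in ethanol, and Dnajb11, a BiP co-chaperone gene, at 53.5 FPKM in 4-OHT and 46.5 FPKM in ethanol.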
